A study of Rattus norvegicus with 8 samples.

Results

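The 36 genes described here are a list of DNA repair genes that covers end joining, homologous recombination, signalling from broken DNA, base excision repair, nucleotide excision repair and mismatch repair. A gene belonged to the set where a non-control probe of the array carried its symbol or an older one, which 34 of the 36 did, among 22593 genes tested in all. Mre11 was found under its older symbol, Mre11a. Probes for Prkdc and Msh6 carry a transcript identifier in place of a symbol and were recognised only through an accession or gene number, so these 2 genes are given beside the others and are not counted with them. The 34 genes had 50 probes, 48 of which were bright enough to be kept, and every one of the 34 genes was tested.

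The samples were primary hippocampal neurons of Wistar rats, taken at postnatal day 0 to 1 and infected on day 3 in vitro with lentiviral vectors at a multiplicity of infection of 6. Total RNA was collected after 7 days, at day 10 in vitro, and hybridised to 8 one-colour Agilent arrays. Of these, 4 were of neurons with a scrambled control shRNA and 4 of neurons with an shRNA against rat Sirt6. The cultures of both groups were thus infected with a vector, 1 hairpin was set against 1 scrambled hairpin, and the series asks what SIRT6 does in the forming of neuronal shape. Nothing in the labels ties the 4 samples of a group to 4 separate cultures or animals, and the p-values therefore reflect the variation among these 4, which could be technical. On the single slide the scrambled samples filled row 1 and the knockdown samples row 2, and the effects of row and shRNA cannot be told apart.

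Repair pathways divide the work by type of lesion. A broken double strand is sensed by kinases and scaffold proteins, and is then either joined end to end or copied from a sister chromatid, the second route being used mainly by dividing cells. Damaged single bases are cut out by glycosylases and the gap is refilled and sealed, and bulky lesions are removed as a short stretch of one strand. Neurons no longer divide, so end joining and base excision are the routes they are known to rely on most. SIRT6, a deacetylase and ADP-ribosyltransferase of the sirtuin family, is itself known to be recruited to DNA breaks and to modify the PARP1 protein, whereas the arrays measure only transcripts.

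Sirt6 itself fell. Its level, given throughout as log2 of the processed signal relative to the 75th percentile of the array, was 2.10, 2.04, 2.02 and 2.06 with the scrambled shRNA and 0.55, 0.58, 0.50 and 0.46 with the Sirt6 shRNA. The difference of -1.53 ± 0.040 (SE, n = 4 per group; limma adjusted p = 5.55e-06) left 34.6% of the control level. All 12 neuron markers on the list used were detected. Across all genes, array profiles correlated at 0.995 to 0.997 within groups and at 0.991 to 0.993 between them.

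Transcripts of 9 repair genes rose and those of 2 fell with the Sirt6 shRNA, 9 of the 11 by 1.28-fold or less. The genes that rose were Nhej1 and Xrcc5 of end joining, the break scaffold Mdc1, Brca1 and Brca2 of homologous recombination, and Mutyh, Parp2, Lig1 and Fen1 of base excision and strand break repair. The uracil glycosylase Ung and the break sensor Parp1 fell. Called means an adjusted p under 0.05 in limma with Benjamini-Hochberg adjustment over all genes tested. The 11 called genes are 32.4% of the 34, where 30.4% of all genes tested were called, so the share called in either direction was near the background. By direction, 26.5% of the repair genes were called higher against 15.6% of all genes, and 5.88% lower against 14.8%. These shares describe the list and were not tested. With the normexp background correction 5 of the 34 were called lower, where 32.9% of all genes were called, 49.4% of those higher.

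The signs and the ranges of the arrays leaned the same way, but they come from the same values as the calls and add no separate support. The difference was positive for 23 of the 34 genes, or 67.6%, and for 54.4% of all genes. Its median was 0.085 on the log2 scale over the repair genes and 0.021 over all genes, while the median absolute difference was 0.15 over the repair genes and 0.14 over all genes. For 12 repair genes all 4 Sirt6 shRNA arrays lay above all 4 scrambled arrays, and for 3 they lay below. That is 35.3% and 8.82% of the list, where 17.4% and 16.1% of all genes tested did not overlap in these directions and 33.4% in either. For 1 gene alone, groups that do not overlap give a two-sided exact permutation p of 0.0286, the smallest that 4 arrays against 4 allow. The balance moved with the scaling: of all called genes, 51.3% were higher here, 35.2% after centring each array on its median and 64.0% after scaling on the spike-in probes. The number of repair genes called higher was 6 under either of those scalings. The share of all genes called in either direction also fell, from 30.4% to 25.1% and 14.5% in turn. The median over the repair genes was 0.040 after median centring, where that over all genes was -0.0245. With spike-in scaling the 2 medians were 0.160 and 0.0949, so both moved together with the scaling.

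**Figure D1:**
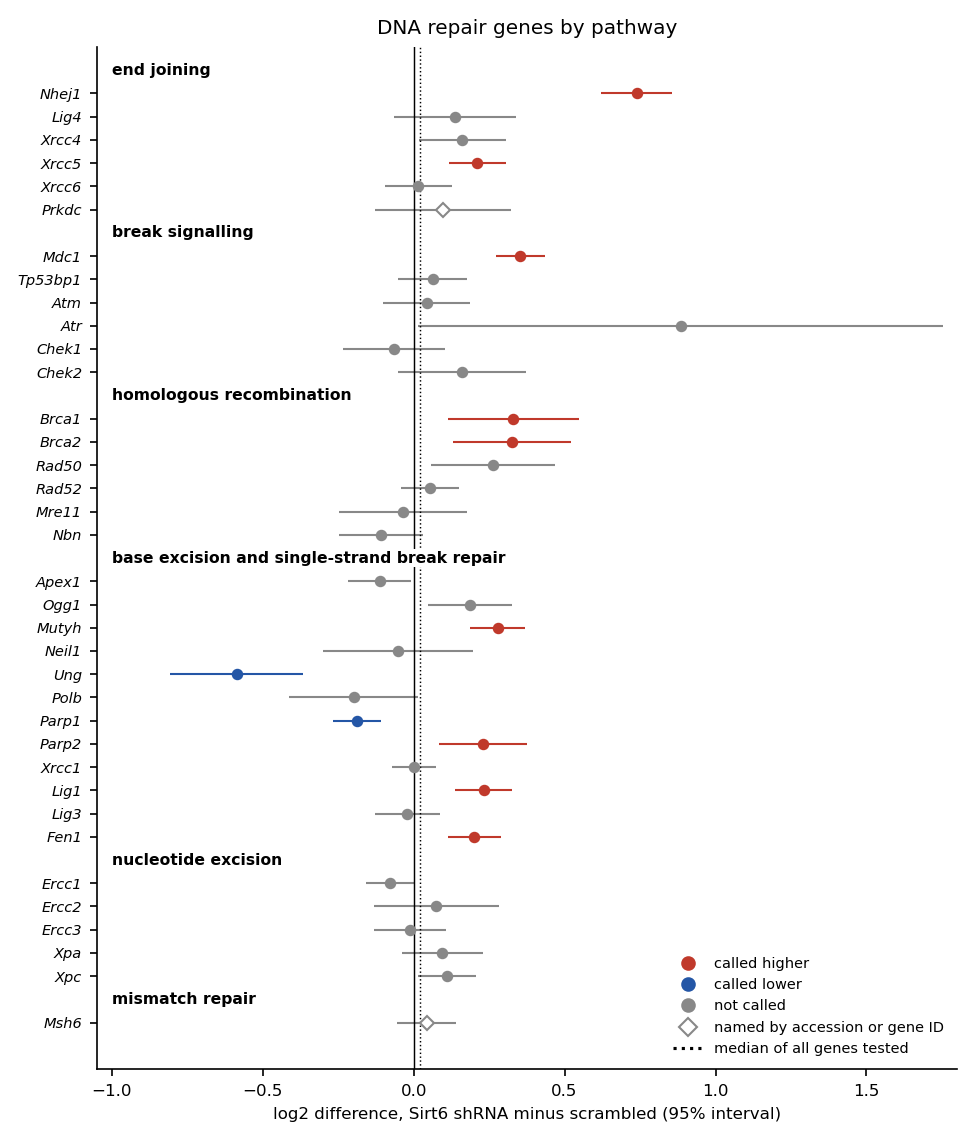
Difference in level between Sirt6 shRNA and scrambled arrays for each repair gene, grouped by pathway, as points with 95% intervals on a log2 axis; the dotted line is the median over all genes tested. Of the 34 genes of the list 9 were called higher and 2 lower, Nhej1 stood furthest right among the called genes and Ung furthest left, and the widest interval was that of Atr; open diamonds mark Prkdc and Msh6.

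**Figure D2:**
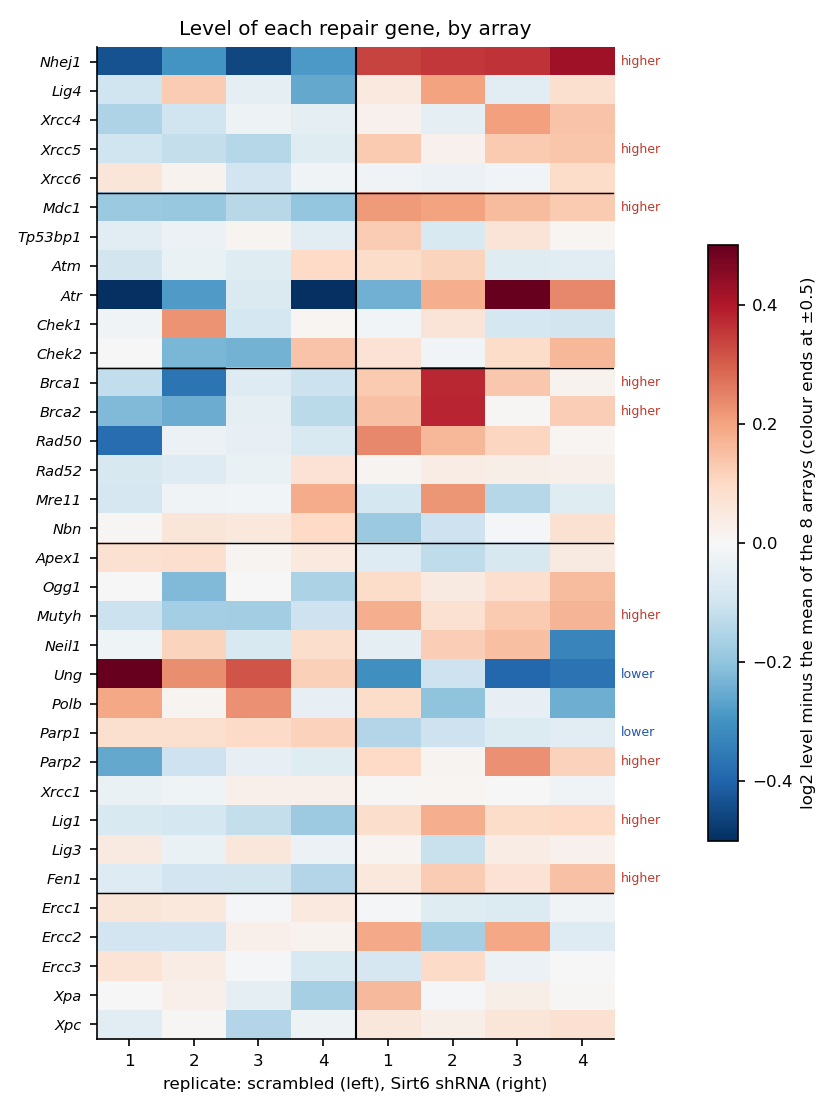
Level of the 34 repair genes in each of the 8 arrays, as the log2 level minus the mean of the 8 arrays, with colours ending at 0.5 in either direction; horizontal lines separate end joining, break signalling, homologous recombination, base excision and nucleotide excision, from top to bottom. Nhej1 and Mdc1 change colour between the groups in every array, while Sirt6 shRNA replicate 2 holds the darkest red cells of Brca1 and Brca2.

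Nhej1 changed most among the called repair genes. It encodes XLF, which holds broken ends together and stimulates their sealing by the ligase that Lig4 and Xrcc4 form. In the scrambled arrays Nhej1 stood at -1.95, -1.81, -1.96 and -1.80. In the Sirt6 shRNA arrays it stood at -1.17, -1.16, -1.15 and -1.09. Every Sirt6 shRNA array lay far above the highest scrambled one, and the spread within the Sirt6 shRNA group was narrow. The rise was 0.74 ± 0.051 on the log2 scale, or 1.67-fold (limma adjusted p = 6.81e-05), and ranked 181 of all genes by p. It was called in all 21 settings of the processing that were tried, with differences from 0.52 to 0.81.

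Nhej1 has 1 probe, which the files place at chr9:74309548-74309607 on the minus strand of the rat build rn4; which exon or UTR this span and the other probes lie in was not analysed here. The probe is shown because the largest called change of the list rests on it, and the promoter, from 250 bases before to 50 bases after the start in RefSeq's build GRCr8 (chr9:84070768-84071067, minus strand), because the window holds a match to the NRF1 motif (GCGCA, any base, then GCGC), given in capitals. That motif, searched on both strands, stood in the windows of 5 of the 29 repair genes that have one, namely Nhej1, Lig4, Xrcc1, Lig3 and Ercc2. The share of 17.2% compares with 8.02% of the windows of tested genes and 4.25% of all windows, and Nhej1 alone of the 5 was called.
Nhej1 probe: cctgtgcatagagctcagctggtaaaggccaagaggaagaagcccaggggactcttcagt
Nhej1 promoter: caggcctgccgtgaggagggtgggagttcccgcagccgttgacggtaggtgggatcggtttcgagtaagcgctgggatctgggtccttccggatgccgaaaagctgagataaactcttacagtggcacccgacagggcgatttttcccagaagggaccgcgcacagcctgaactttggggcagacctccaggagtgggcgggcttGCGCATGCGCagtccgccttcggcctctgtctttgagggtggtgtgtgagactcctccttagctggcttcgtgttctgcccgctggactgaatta

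The other end joining genes moved less. Xrcc5 encodes Ku80, which with Ku70 forms the ring that first grips a broken end. Xrcc5 stood at 2.67, 2.65, 2.63 and 2.71 in the scrambled arrays and at 2.90, 2.79, 2.90 and 2.91 in the Sirt6 shRNA arrays. The groups did not overlap, and Sirt6 shRNA replicate 2 lay lowest of its group. The rise was 0.21 ± 0.041 (1.16-fold, limma adjusted p = 0.00635). It was not called after median centring (0.17, limma adjusted p = 0.0678) or spike-in scaling (adjusted p = 0.0905). Of its 2 probes, which have the same 60-base sequence, the dimmer gave 0.17 and was also called when all probes were tested.

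Its partner Xrcc6, for Ku70, did not pass the test, with a difference of 0.016 and a 95% interval from -0.094 to 0.13. Whether Xrcc5 and Xrcc6 differ in response was not tested. Lig4, the ligase of this pathway, was at 0.14 ± 0.088 and Xrcc4, its scaffold, at 0.16 ± 0.062 (limma adjusted p = 0.0868), with the groups overlapping for both genes. Without Sirt6 shRNA replicate 2 Xrcc4 was called (0.20, adjusted p = 0.0391). Its second kept probe gave -0.048. Prkdc, the catalytic subunit of the DNA-dependent kinase that Ku recruits, was at 0.097 ± 0.097, with 0.00061 and -0.13 on its other probes. All 5 end joining genes of the list had positive differences on their brightest probe, where 54.4% of all genes did. The dimmer probe of Xrcc6 gave -0.030 ± 0.062, so the sign depended on the probe for Xrcc6 as for Xrcc4.

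Among the genes of break signalling, Mdc1 was the one called. Its protein binds the phosphorylated histone H2AX beside a break and gathers other factors there. Mdc1 stood at 0.54, 0.54, 0.59 and 0.54 in the scrambled arrays. With the Sirt6 shRNA it stood at 0.94, 0.93, 0.89 and 0.86. The groups were far apart relative to their spread, and the rise was 0.35 ± 0.035, or 1.28-fold (limma adjusted p = 0.000299), called in all 21 settings. Its only probe (chr20:3043075-3043134, minus strand, rn4) is shown as the sequence behind the second most certain rise of the list.
Mdc1 probe: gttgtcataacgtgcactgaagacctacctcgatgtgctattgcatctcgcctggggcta

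Tp53bp1, which steers breaks towards end joining, was at 0.063 ± 0.049, and Atm, the kinase activated by double-strand breaks, at 0.043 ± 0.062. The effector kinases Chek1 and Chek2 were at -0.065 ± 0.073 and 0.16 ± 0.092. None of these 4 was called, and the interval of Tp53bp1, Atm and Chek1 lay within 0.25 of 0 on the log2 scale. Atr, the kinase that answers to exposed single strands, had the largest difference of the list at 0.88 ± 0.38 but was not called (limma adjusted p = 0.115). Its single, dim probe read -5.07, -4.49, -4.28 and -4.76 in the scrambled arrays and -4.45, -4.03, -2.62 and -3.97 with the Sirt6 shRNA. The groups overlapped, and without Sirt6 shRNA replicate 3 the difference was 0.50. It was 0.20 with the normexp background correction.

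Homologous recombination had both Brca genes higher. Brca1 takes part in trimming the broken ends and Brca2 acts in the strand exchange that follows. Brca1 stood at -2.31, -2.55, -2.25 and -2.29 in the scrambled arrays and at -2.06, -1.81, -2.05 and -2.17 with the Sirt6 shRNA. Brca2 stood at -1.52, -1.54, -1.34 and -1.43 against -1.15, -0.91, -1.29 and -1.17. For both genes the groups did not overlap by a small margin, and Sirt6 shRNA replicate 2 was the highest array. Brca1 rose by 0.33 ± 0.094 (1.26-fold, limma adjusted p = 0.0310) and Brca2 by 0.33 ± 0.084 (1.25-fold, adjusted p = 0.0218).

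Neither rise of the Brca genes was firm. With 1 array left out, Brca1 was called in 2 of 8 cases (limma adjusted p from 0.0288 to 0.0655) and was lost without scrambled replicates 1, 2 or 4 and without Sirt6 shRNA replicates 1, 2 or 3. Brca2 was called in 6 of 8, the omission of scrambled replicates 1 and 2 giving adjusted p = 0.0549 and 0.0601. Both were lost without a filter on dim probes (adjusted p = 0.0596 and 0.0505), and with the normexp background correction the rises were 0.19 and 0.22, both called (adjusted p = 0.0123). Other probes gave 0.35 for Brca1, on a probe too dim to be kept, and 0.27 for Brca2. 

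The other members of this pathway did not pass. Mre11, Rad50 and Nbn encode the complex that binds and trims broken ends, and they were at -0.036 ± 0.092, 0.26 ± 0.089 and -0.11 ± 0.060. Rad50 (limma adjusted p = 0.0566) stood at -3.14, -2.79, -2.80 and -2.84 in the scrambled arrays and at -2.52, -2.59, -2.65 and -2.75 with the Sirt6 shRNA. Its groups did not overlap, scrambled replicate 1 lay well below the other arrays, and without it the difference was 0.18 (adjusted p = 0.0655). Rad52, which anneals single strands, was at 0.053 ± 0.042.

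Genes of dividing cells are given beside the Brca genes, since recombination and replication genes are known to be transcribed in cycling cells. Of 20 such markers 3 were called higher and 2 lower, where 15.6% and 14.8% of all genes were. Neither share of the list was above that of all genes. Those called higher were Nusap1 at 0.62 ± 0.16, Top2a at 0.61 ± 0.19 and Cdc20 at 0.28 ± 0.079. Ccne1, at -0.21 ± 0.034, was among those called lower. The groups did not overlap for 7 markers that were higher and 2 that were lower, against 17.4% and 16.1% of all genes. The log2 of the summed levels of the 20 markers ranged from 4.15 to 4.24 in the scrambled arrays and from 4.20 to 4.54 with the Sirt6 shRNA. The median deviation of the list was 0.34 in Sirt6 shRNA replicate 2 and between -0.046 and 0.033 in the other arrays of that group. The array highest for Brca1, Brca2 and Lig1 was thus also highest for this list. The other repair genes called higher peaked in other Sirt6 shRNA arrays, and Xrcc5, Mutyh and Parp2 were lowest of that group in replicate 2. Replicate 2 stood apart for the 10 microglia markers too, with a median deviation of 0.381 against -0.587 to -0.362 in the other Sirt6 shRNA arrays. Without it Brca1 was at 0.26 (limma adjusted p = 0.0512), Brca2 at 0.25 (adjusted p = 0.0250) and Lig1 at 0.21 (adjusted p = 0.00933). The part of dividing cells or microglia in these rises was not tested.

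**Figure D3:**
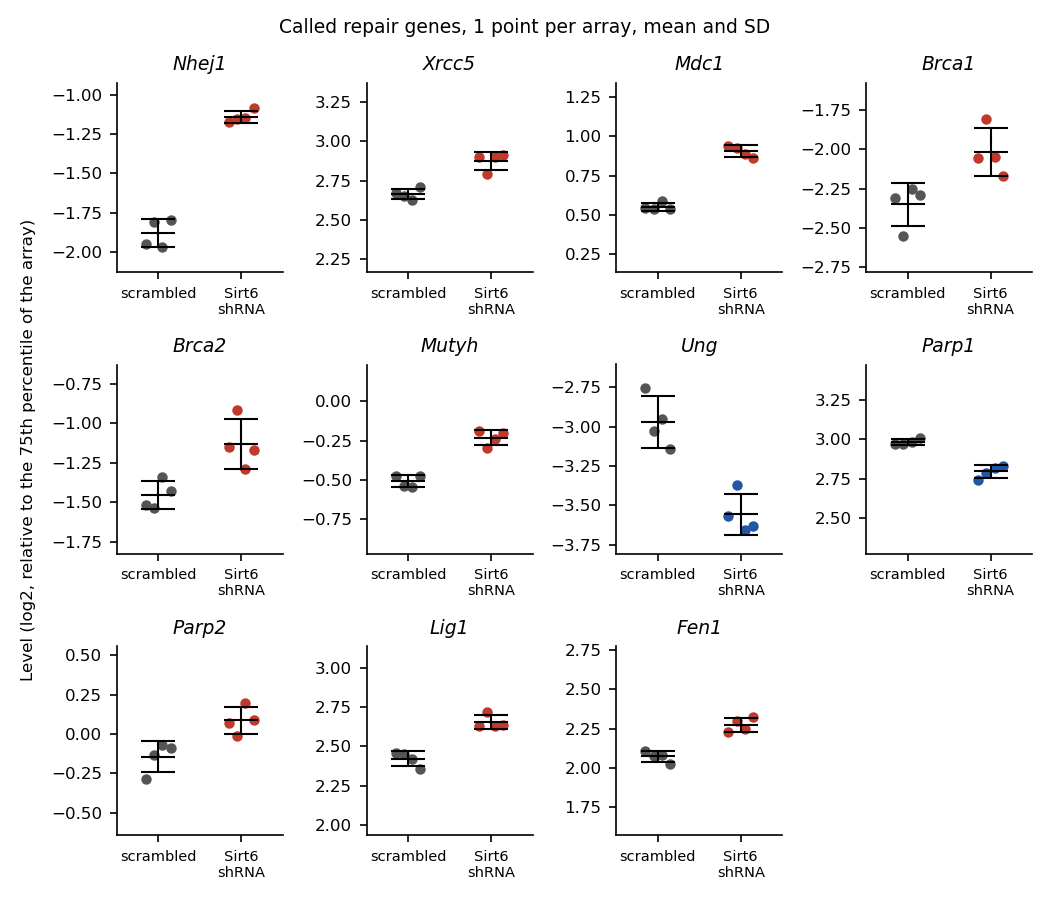
Levels of the 11 called repair genes, 1 point per array, with the group mean and SD as bars, on log2 axes that all span the same range. The groups do not overlap for any of the 11 genes; Nhej1 and Ung are the most widely separated in level, and Parp2, Brca1 and Brca2 the least clearly separated relative to their spread.

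Base excision and single-strand break repair is the largest group of the list, with 4 of 12 genes called higher (33.3%, against 15.6% of all genes) and 2 lower (16.7%, against 14.8%). Its members pointed both ways, with 6 positive and 6 negative differences. At the first step, glycosylases cut out damaged bases. Ung, which removes uracil, stood at -2.76, -3.03, -2.95 and -3.15 in the scrambled arrays. With the Sirt6 shRNA it stood at -3.57, -3.37, -3.66 and -3.63. All Sirt6 shRNA arrays lay below all scrambled arrays, and Ung was left at 66.6% of its control level (difference -0.59 ± 0.095, limma adjusted p = 0.00299). It was called in all 21 settings, though with normexp the difference was -0.22.

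The probe of Ung (chr12:43522521-43522580, minus strand, rn4) is printed as the sequence behind the largest fall of the list. Its promoter window in GRCr8 (chr12:48153996-48154295, minus strand, RefSeq) is printed for the 3 CCAAT boxes it holds, in capitals. A CCAAT box on either strand stood in 9 of the 29 windows of repair genes, or 31.0%, and in 37.0% of the windows of tested genes.
Ung probe: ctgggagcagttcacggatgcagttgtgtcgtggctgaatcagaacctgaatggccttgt
Ung promoter: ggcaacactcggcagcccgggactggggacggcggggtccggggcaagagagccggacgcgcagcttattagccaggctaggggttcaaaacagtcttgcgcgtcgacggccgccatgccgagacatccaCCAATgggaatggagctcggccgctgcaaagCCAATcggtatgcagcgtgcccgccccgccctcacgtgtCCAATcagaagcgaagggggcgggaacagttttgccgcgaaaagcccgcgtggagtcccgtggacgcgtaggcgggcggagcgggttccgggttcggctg

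Mutyh, which removes adenine paired with oxidised guanine, rose. It stood at -0.48, -0.54, -0.55 and -0.48 in the scrambled arrays and at -0.19, -0.30, -0.24 and -0.20 with the Sirt6 shRNA, without overlap. The rise was 0.28 ± 0.039 (1.21-fold, limma adjusted p = 0.00161), called in all 21 settings, and a second probe offset by 1 base gave 0.26 ± 0.058. Ogg1, which removes oxidised guanine itself, was at 0.19 ± 0.061 and missed the threshold (adjusted p = 0.0501) although its groups did not overlap, with -1.18, -1.40, -1.18 and -1.33 in the scrambled arrays and -1.09, -1.13, -1.09 and -1.02 with the Sirt6 shRNA. It was called in 6 of 21 settings. Neil1, another glycosylase for oxidised bases, was at -0.052 ± 0.11.

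The next steps cut the backbone and refill the gap. Apex1, the endonuclease that nicks the strand at a missing base, was at -0.11 ± 0.045, and Polb, the polymerase that fills in 1 base, at -0.20 ± 0.093. Neither was called, and for both the groups overlapped. Apex1 was called without Sirt6 shRNA replicate 4 (-0.15, limma adjusted p = 0.0324) and with normexp (-0.14, adjusted p = 0.0189). Fen1, which trims the flap when a longer patch is laid down, rose by 0.20 ± 0.038 (1.15-fold, adjusted p = 0.00567). It stood at 2.11, 2.08, 2.08 and 2.03 in the scrambled arrays and at 2.23, 2.30, 2.25 and 2.32 with the Sirt6 shRNA. It was not called after median centring (adjusted p = 0.0566) or spike-in scaling (adjusted p = 0.0512).

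Ligases act last. Lig1, which also seals Okazaki fragments, stood at 2.46, 2.45, 2.42 and 2.36 in the scrambled arrays. With the Sirt6 shRNA it stood at 2.63, 2.72, 2.63 and 2.64, above all scrambled arrays. The rise was 0.23 ± 0.040 (1.17-fold, limma adjusted p = 0.00402), called in all 21 settings, and its second probe gave 0.21 ± 0.037. The Lig1 window in GRCr8 (chr1:83242920-83243219, plus strand, RefSeq) is shown as the only one of 29 with TTTCGCGC, a form of the E2F motif. The match is read on the opposite strand and given in capitals, and 0.519% of the windows of tested genes hold this form. No window of a repair gene held TTTGGCGC, another form. Further forms of the E2F motif were not searched and may stand in other windows.
Lig1 promoter: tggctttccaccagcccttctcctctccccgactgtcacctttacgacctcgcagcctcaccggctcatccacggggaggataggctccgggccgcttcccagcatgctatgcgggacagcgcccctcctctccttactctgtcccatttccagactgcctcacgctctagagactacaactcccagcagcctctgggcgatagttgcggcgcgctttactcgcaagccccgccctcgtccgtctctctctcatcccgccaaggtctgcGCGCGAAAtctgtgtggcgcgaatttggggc

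Lig3, the ligase that works with Xrcc1, was at -0.021 ± 0.046 on the brightest of its 4 probes. Its values there were 2.02, 1.95, 2.04 and 1.95 in the scrambled arrays and 1.99, 1.87, 2.01 and 1.997 with the Sirt6 shRNA. The groups overlapped apart from Sirt6 shRNA replicate 2, which lay below every scrambled array. One of its dimmer probes (chr10:71021748-71021807, plus strand, rn4) was called lower at -0.35 ± 0.067 when all probes were tested (limma adjusted p = 0.00608). The probes on either side of it along the chromosome, starting at 71021338 and 71023429, gave -0.0048 and -0.021, and the remaining one gave -0.051. The gene and that 1 probe therefore do not give the same answer. Xrcc1, the scaffold of this step, was at 0.0015 ± 0.032, with an interval from -0.073 to 0.076.

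The enzymes that mark strand breaks with chains of ADP-ribose went in opposite directions. Parp1 stood at 2.97, 2.97, 2.98 and 3.01 in the scrambled arrays and at 2.75, 2.79, 2.82 and 2.83 with the Sirt6 shRNA. Parp2 stood at -0.28, -0.13, -0.070 and -0.087 against 0.072, -0.013, 0.20 and 0.089. Neither gene's groups overlapped, with a narrow spread for Parp1 and a small gap for Parp2. Parp1 was left at 87.9% of control (difference -0.19 ± 0.034, limma adjusted p = 0.00525) and Parp2 rose 1.17-fold (0.23 ± 0.064, adjusted p = 0.0286).

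Neither call held under every scaling. Parp1 was called in all 8 omissions of 1 array, but with spike-in scaling it was at -0.11 (limma adjusted p = 0.438). Parp2 was called in 3 of 8 omissions (adjusted p from 0.0236 to 0.0697). It was lost without scrambled replicate 1 or 2 and without Sirt6 shRNA replicate 1, 3 or 4, and also after median centring (adjusted p = 0.0953), spike-in scaling (adjusted p = 0.112) and with no filter on dim probes (adjusted p = 0.0594). The probes of Parp1, Lig1 and Fen1 are each spotted 10 times on an array, and the SD between spots of 1 array ranged from 0.035 to 0.12 over the 3 genes.

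Of nucleotide excision repair no gene was called. Xpc, which recognises the distorted helix, was at 0.11 ± 0.042, and Xpa, which verifies the damage, at 0.095 ± 0.058. The helicases Ercc2 and Ercc3 of the transcription factor TFIIH were at 0.075 ± 0.089 and -0.011 ± 0.052. Ercc1, part of the nuclease that cuts on one side of the lesion, was at -0.079 ± 0.034. The groups did not overlap for Xpc, higher with the Sirt6 shRNA, or for Ercc1, lower, yet both missed the threshold (limma adjusted p = 0.0804 and 0.120). For 4 of the 5 genes the 95% interval lay within 0.25 of 0. Msh6, the mismatch sensor given beside the list, was at 0.043 ± 0.042 (adjusted p = 0.484).

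**Figure D4:**
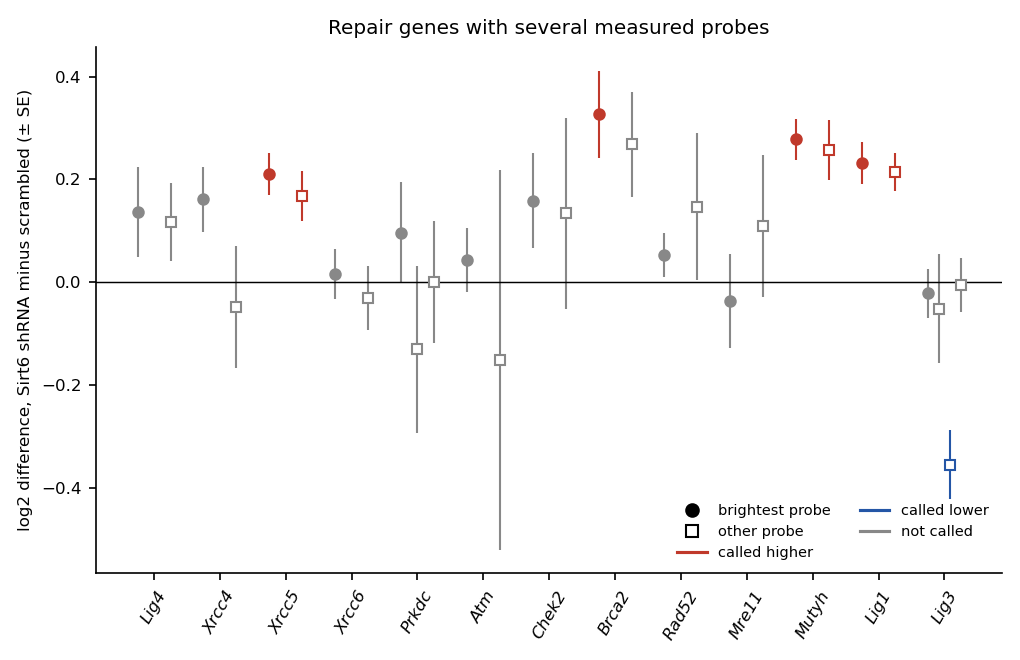
Difference between Sirt6 shRNA and scrambled arrays for every kept probe of the repair genes that have more than 1, with SE, on a log2 axis; circles are the brightest probe of each gene and squares the others, and colours follow calls with all kept probes tested. The probes of Xrcc5, Mutyh and Lig1 agree in direction and call, whereas 1 of the 4 Lig3 probes lies at -0.35 and the other 3 between -0.051 and -0.0048.

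A wider list of 101 other repair genes, of which 87 were tested, was counted the same way. Of these, 20 were called higher and 8 lower, 32.2% of those tested, which is near the 30.4% called of all genes, and the median difference was 0.066. The count of higher calls was 9 after median centring and 11 with spike-in scaling, where 25.1% and 14.5% of all genes were called in either direction. Fancl, the ubiquitin ligase of the Fanconi anaemia pathway, which unhooks crosslinked strands, had the largest rise. It stood at -1.55, -1.62, -1.58 and -1.56 in the scrambled arrays and at -0.80, -0.78, -0.79 and -0.72 with the Sirt6 shRNA, a rise of 0.81 ± 0.036 that ranked 19 of all genes by p (limma adjusted p = 2.09e-05). Its partner Ube2t, the conjugating enzyme, was at 0.63 ± 0.18, and Fancc, of the core complex, at 0.37 ± 0.11, though the other Fancc probe gave 0.011. In total, 3 of the 9 Fanconi genes tested were called higher and 2 lower.

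The counts by pathway that follow stand against 15.6% of all genes called higher and 14.8% lower. Homologous recombination genes outside the 34 had 7 of 18 called higher and 1 lower. The nuclease gene Mus81 was at 0.41 ± 0.064 and the helicase gene Blm at 0.39 ± 0.067. Rad51d, which also acts in strand exchange, was lower at -0.69 ± 0.093, with -0.32 on its other probe. In mismatch repair all 7 genes had positive differences and 2 were called higher, among them Mlh3, part of a mismatch endonuclease, at 0.32 ± 0.054. 

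Base excision genes outside the 34 went both ways, with 2 higher and 2 lower of 13. Smug1, a second uracil glycosylase beside Ung, was higher at 0.40 ± 0.043, but its other probe gave 0.12. Tdp2, which frees topoisomerases from DNA ends, was higher at 0.26 ± 0.049, and the alkyl-base glycosylase Mpg was lower at -0.23 ± 0.051. End joining had 2 higher and 1 lower of 9, with the polymerase gene Poll at 0.13 ± 0.037 and Cyren, an inhibitor of end joining, at -0.27 ± 0.064. Break signalling had 2 higher and 2 lower of 12, among them Abraxas1 at -0.32 ± 0.048 and Uimc1 at 0.22 ± 0.052, both of a Brca1 complex, and Atrip, the partner of Atr, at -0.18 ± 0.053. Nucleotide excision had 2 of 16 higher, Gtf2h3 at 0.16 and Ercc8 at 0.14, with Ercc8's 3 other probes from -0.052 to 0.12. No gene of direct reversal was called among 3.

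**Figure D5:**
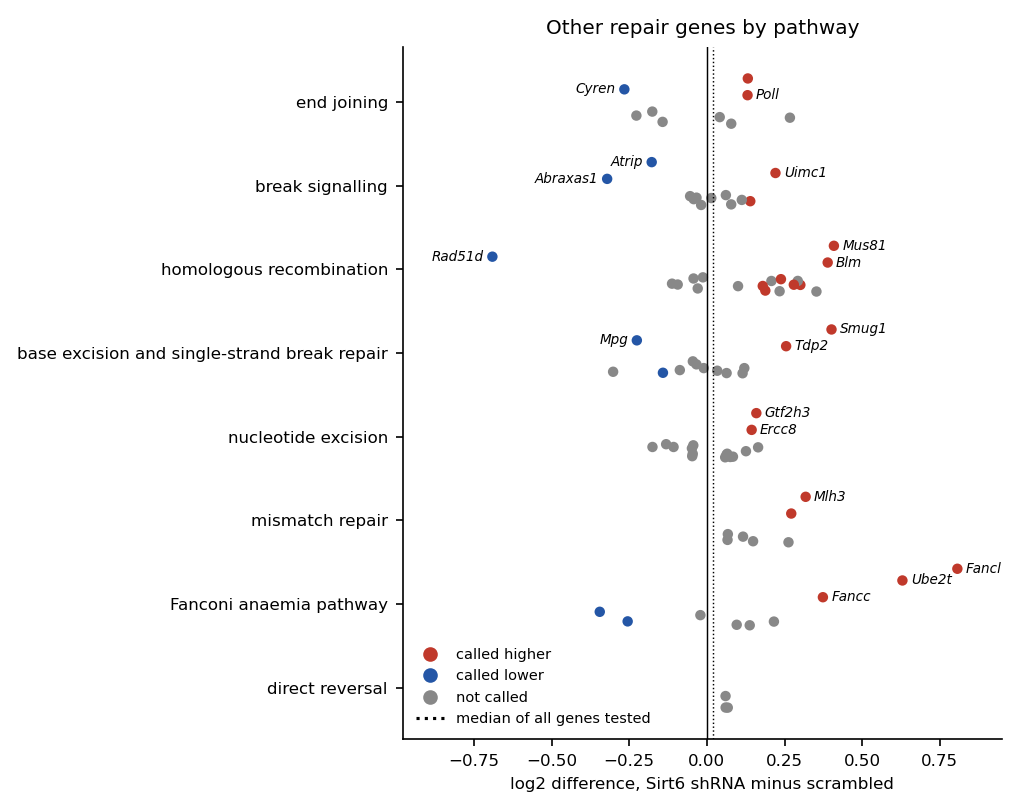
Differences of the 87 other repair genes tested, by pathway, on a log2 axis, with calls in colour and at most 3 called genes per pathway named; height within a pathway has no meaning. Fancl and Ube2t lie furthest right, Rad51d furthest left, and the dotted line marks the median of all genes tested.

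Transcripts that p53 induces after DNA damage leaned lower, with called genes in both directions. Of 16 tested, 2 were called higher and 4 lower, where 15.6% and 14.8% of all genes were. The difference was negative for 11 and positive for 5, or 31.2% positive against 54.4% of all genes, with a median of -0.040. The groups did not overlap for 6 genes that were lower and 2 that were higher, against 16.1% and 17.4% of all genes. This lean was not tested. Perp, a p53 target of cell junctions, was at 0.69 ± 0.099 and the receptor gene Eda2r at 0.49 ± 0.10. The nuclease gene Aen was at -0.56 ± 0.039 and Gadd45a, a growth arrest gene, at -0.36 ± 0.042.

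Markers of some other cell types in such cultures also differed between the groups, and their part in the repair gene differences was not tested. The counts below stand against 15.6% of all genes called higher, 14.8% lower and 30.4% in either direction. In either direction 30.0% of microglia, 33.3% of oligodendrocyte lineage and 33.3% of neuron markers were called, near that share. All 10 microglia differences were negative, however. In bulk RNA fewer cells of a type and less RNA per cell cannot be told apart. Astrocyte markers were called lower for 7 of 9, with S100b at -1.42 ± 0.078 and Gfap at -0.71 ± 0.069, and the log2 of their summed levels was 8.35 to 8.49 in the scrambled arrays and 7.87 to 8.004 with the Sirt6 shRNA. Vascular and mural markers were called higher for 4 of 7, with Tagln at 2.14 ± 0.11, while Cldn5 and Rgs5 were too dim to be kept. Their sums were 1.96 to 2.21 against 3.54 to 3.83. Tagln was the brightest of the 7, at a mean of 3.41 with the Sirt6 shRNA, and made up most of that sum. Cdh5 was positive but not called, and Pecam1 (-0.46 ± 0.17) and Pdgfrb (-0.074 ± 0.052) were negative and not called. Fibroblast markers were higher for 4 of 6 (sums of 5.20 to 5.27 against 5.45 to 5.57), with Col1a2 at 0.36 ± 0.080 and Lum too dim to be kept. Of 10 microglia markers 3 were lower (4.79 to 5.28 against 4.30 to 5.29), with Tmem119 at -0.89 ± 0.18. Of 9 oligodendrocyte lineage markers 2 were lower and 1 was higher (4.61 to 4.73 against 4.57 to 4.65), with Mbp at -1.31 ± 0.11. Of 12 neuron markers 3 were higher and 1 was lower (7.26 to 7.28 against 7.20 to 7.34), with Tubb3 at 0.32 ± 0.058 and Gad1 at -0.41 ± 0.047.

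The promoter windows of the repair genes were rich in CpG. Of the 34 genes 29 had a 300-base window in RefSeq's table, with a median of 23 CpG (5 to 37), where the windows of tested genes had a median of 18 and all windows one of 7. Each repair gene was given a single window, whereas the tested genes had 14258 windows for 12303 genes. The medians and the motif shares therefore do not compare like with like in windows per gene. The 10 called genes with a window had a median of 23.5 and the 19 not called one of 22. The ETS motif CCGGAAGT stood in 4 of 29 windows (13.8%, against 6.52% of the windows of tested genes), those of Xrcc4, Rad50, Ercc1 and Ercc3, none of which was called. The CRE TGACGTCA stood in none, against 2.78% of the windows of tested genes. A match describes these letters in the window and no binding was measured.

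In the same annotation 12 of these 29 genes start within 1000 bases of a gene on the opposite strand, and for 10 of the 12 pairs the neighbour was tested too. In 1 pair both genes were called, and they went opposite ways: Brca1 rose while its neighbour Nbr1, an autophagy receptor, fell by 0.21 ± 0.039 on the log2 scale (limma adjusted p = 0.00538). Mutyh and Lig1 were called without their neighbours Toe1 (0.080 ± 0.049) and Zswim9 (-0.017 ± 0.14). Conversely 5 repair genes were not called while their neighbours were, where 30.4% of all genes tested were called. These were Xpc beside Lsm3 (0.24 ± 0.039), Apex1 beside Osgep (-0.21 ± 0.040), Xrcc6 beside Desi1 (-0.25 ± 0.055), Mre11 beside Ankrd49 (0.25 ± 0.078) and Lig3 beside the unnamed locus LOC102547954 (0.65 ± 0.12). The annotated spans of Toe1, Zswim9 and Ankrd49 also overlap those of their repair genes. The neighbours above were named for their position, after the repair genes' values were known.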

How the data were processed

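The 8 arrays were compared as 4 scrambled shRNA samples and 4 Sirt6 shRNA samples, grouped by their titles. The submitters' processing notes name Agilent Feature Extraction 11.5.1.1, and the deposited intensity of a spot is its processed signal, with background subtracted, per the file headers. The authors also deposited log2 values, which equalled the log2 processed signal minus 1 constant per array (SD of the difference at most 0.0029) and served as an alternative. A column's median there was -3.70 to -3.59 and its 75th percentile 0.0075 to 0.01. This alternative therefore nearly repeats the scaling used here and is no separate check of it.

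From the intensities, control spots and outlier spots (273 to 376 per array) were left out, spots of 1 probe were averaged as log2 values, and each array's 75th percentile over 45598 probes was subtracted. The median processed signal of an array was 24.1 to 27.5, 60.4% to 65.3% of probes were well above background, and the number of arrays limits the precision. A probe was kept if well above background on at least 4 of 8 arrays (28620 probes), and the brightest kept probe stood for its gene. Names came from a RefSeq table of GRCr8, used for names, promoters and neighbours: 21109 probes matched by systematic name, 2631 by some other RefSeq accession, 5159 by their symbol and 352 by a former one, and 16347 kept the name in the file.

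The 2 groups were fitted in R 4.3.3 with lmFit and eBayes of limma 3.58.1 (two-sided, Benjamini-Hochberg over all genes tested), after this step had been tested on simulated data. With 200 genes changed there, 31.3% of log2 changes of 0.3 were recovered, 68.7% of 0.6 and 90.9% of 1.0. Of the calls 6.62% were false. The real data had 6874 calls, so these shares do not carry over directly. A gene not called is not shown to be unchanged. The members and the lists were chosen with earlier results of these data known. Genes named were every repair gene, up to 3 called genes per pathway of the other repair genes and up to 4 per marker list, by largest absolute difference; a few genes of that rule are not reported here. Alternatives covered background correction (normexp, offset 50), quantile normalization, median centring, the deposited log2 values, a looser and a stricter filter on dim probes, averaging of a gene's probes, testing every kept probe, a trended and robust eBayes, array weights, a replicate block and leaving out single arrays. Scaling on 7 E1A spike-in probes and counting Prkdc and Msh6 as members were added after the data were seen. A slide block was not run, since all arrays lay on 1 slide.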

Additional observations from a re-analysis of the deposited data

Results flagged for a closer look

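In 6 of the 68 groups of 4 arrays, taken gene by gene over the 34 repair genes, 1 array lay apart from the other 3 by Dixon's test at 95%; chance alone flags about 1 in 20 such groups. Sirt6 shRNA replicate 2 was the array apart in 3 of them. It was low for Xrcc5 (2.793, nearest array 2.90), high for Lig1 (2.719, nearest 2.64) and low for Lig3 (1.865, nearest 1.99). Sirt6 shRNA replicate 4 was high for Xrcc6 (2.362, nearest 2.25). Scrambled replicate 3 was high for Mdc1 (0.5878, nearest 0.54), and scrambled replicate 1 was low for Rad50 (-3.14, nearest -2.84). Xrcc5, Lig1 and Mdc1 were called with any 1 array left out. No cause was tested for these arrays.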

How the results depend on the processing

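Of 220 comparisons of the 11 called repair genes with their values under 20 alternatives, 195 kept direction and call, 25 lost the call and 0 reversed. The alternative on the deposited log2 values nearly repeats the main scaling and could hardly differ. Nhej1, Mdc1, Mutyh, Ung and Lig1 were called in every alternative. Among the genes not called, 9 changed sign in 27 comparisons. With 1 array left out, the repair genes called higher numbered 6 to 10 and those called lower 2 to 3, the other repair genes called higher 12 to 16 and lower 5 to 8, and the median difference of the repair genes was 0.057 to 0.106. Sirt6 was at -1.55 to -1.51 in these omissions. Normexp gave 5 repair genes called lower, adding Nbn, Apex1 and Ercc1, and a median of 0.056. Median centring gave a median of 0.040, against -0.0245 over all genes, and 9 other repair genes called higher. With no filter on dim probes 12 other repair genes were called higher and 5 lower, and array weights gave a median of 0.109. Spike-in scaling, added after the data were seen, gave 1 repair gene called lower and 11 other repair genes called higher and 1 lower. The median was then 0.160, against 0.0949 over all genes, and 3268 genes were called in all. Counting Prkdc and Msh6 left the calls at 9 and 2. Correlations of deviations between samples of the same replicate number were 0.064, 0.16, 0.13 and 0.033, so the numbers are not shown to pair samples. With the replicate number as a block 8 repair genes were called higher and 3 lower: Brca1 (adjusted p = 0.0958) and Brca2 (adjusted p = 0.0700) were lost, and Atr (0.88, adjusted p = 0.0398) and Polb (-0.20, adjusted p = 0.0290) were gained, in limma over all genes. Where a call or value moved, the cause was not tested. Low signal over background limits dim probes such as that of Atr.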

Other observations

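Brca2 and the gene N4bp2l1 overlap in the RefSeq annotation, and N4bp2l1 was lower with the Sirt6 shRNA at -0.30 ± 0.081 (limma adjusted p = 0.0270) while Brca2 was higher. Ogg1 overlaps Camk1, a calmodulin-dependent kinase gene, which was called higher at 0.16 ± 0.049 (adjusted p = 0.0379), where Ogg1 just missed the threshold at 0.19. Tp53bp1 overlaps Map1a, a microtubule-associated protein gene of neurons, which was called lower at -0.31 ± 0.075 (adjusted p = 0.0159). Fan1, a nuclease gene of crosslink repair, was lower on both of its probes, at -0.35 ± 0.052 and -0.70 ± 0.10. These genes were picked after their values were seen, and which exon of an overlapping pair a probe reads was not analysed here.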
